A study of Mus musculus with 4 samples.

Results

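Low-RNA Ung nuclei are barcodes of the adult mouse testis that held little RNA but carried transcripts of at least 2 of 7 genes. Ung is 1 of the 7 and gives the class its name. They were selected on measured values: a barcode needed 500 to 3000 UMIs (unique molecular identifiers, each counting 1 captured transcript), at least 500 detected genes, at least 1 UMI in at least 2 of the genes Ung, Ostm1, 4930413G21Rik, A230077H06Rik, Ephb3, E030037K01Rik and Dhh, and at least 1 UMI in fewer than 4 of the genes Fmo5, Ppm1l, Efemp1, Gm33696, Gm6145, Impa2, Myo15, Efcab1, Gm26749 and Tmem132d. By this rule 2894 of the 43625 barcodes that passed the filter of the study (500 to 5000 genes, no fewer than 500 UMIs, and mitochondrial UMIs at 25% or less) were low-RNA Ung nuclei, which was 6.63% of them, and 15.8% of the 18266 barcodes of the same depth. No barcode sequence was shared between the low-RNA Ung nuclei of different libraries.

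The study isolated nuclei from whole testis of 8-week-old male mice and sequenced their transcripts from the 3′ end in 4 droplet libraries, 2 from wild-type (WT) mice and 2 from Dhx37-/- mice, labelled as biological replicates. In the Dhx37-/- mice floxed Dhx37, which encodes an RNA helicase of ribosome assembly, was deleted by a Cre driven by the Amh promoter, so that by design the deletion was in Sertoli cells and not in spermatids. Whether WT mice carried the floxed allele or the Cre, and how many mice gave each library, is not given in the sources used here. P-values between genotypes measured the spread between these 4 libraries.

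Spermatids are the haploid cells that turn into sperm. In their last steps the nucleus condenses: histones are replaced first by transition proteins (Tnp1, Tnp2) and then by protamines (Prm1, Prm2), transcription ceases, and most of the RNA of the nucleus is lost. Free RNA from broken cells enters every droplet of such an experiment, and in testis it is rich in protamine and transition protein transcripts, so that a barcode with few transcripts of its own holds a larger part of it.

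The genes of the gate have unlike roles. Ung encodes the uracil DNA glycosylase that starts base excision repair, Ostm1 the partner of the lysosomal chloride transporter encoded by Clcn7, Ephb3 a receptor for ephrins and Dhh the ligand desert hedgehog, best known in testis as a signal from Sertoli cells. 4930413G21Rik, A230077H06Rik and E030037K01Rik are not annotated as protein-coding. A230077H06Rik and E030037K01Rik are annotated as antisense. The promoters of the 4 named protein-coding genes are shown because transcripts of these genes were counted together by the rule. Each is the 250 bases before the RefSeq start on GRCm38.p6, written in the direction of transcription, at chr5:114130185-114130434 (plus strand) for Ung, chr10:42678666-42678915 (plus strand) for Ostm1, chr16:21204545-21204794 (plus strand) for Ephb3 and chr15:98898541-98898790 (minus strand) for Dhh. Capitals mark the core of the cAMP response element (TGACG, or CGTCA on the other strand) and the GC box (GGGCGG or CCGCCC).
Ung: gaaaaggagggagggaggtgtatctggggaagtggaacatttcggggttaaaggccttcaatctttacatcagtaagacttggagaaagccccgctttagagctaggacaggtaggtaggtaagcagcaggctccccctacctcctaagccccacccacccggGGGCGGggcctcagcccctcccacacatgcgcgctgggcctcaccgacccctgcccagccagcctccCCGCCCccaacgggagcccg
Ostm1: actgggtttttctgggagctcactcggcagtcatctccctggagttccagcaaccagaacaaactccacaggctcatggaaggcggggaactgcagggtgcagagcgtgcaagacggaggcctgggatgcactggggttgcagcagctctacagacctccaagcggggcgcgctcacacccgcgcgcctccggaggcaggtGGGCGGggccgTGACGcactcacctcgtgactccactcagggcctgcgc
Ephb3: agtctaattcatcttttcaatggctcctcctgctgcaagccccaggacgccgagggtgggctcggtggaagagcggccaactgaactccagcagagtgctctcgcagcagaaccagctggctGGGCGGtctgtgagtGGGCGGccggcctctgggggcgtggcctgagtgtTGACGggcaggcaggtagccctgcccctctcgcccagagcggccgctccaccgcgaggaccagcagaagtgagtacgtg
Dhh: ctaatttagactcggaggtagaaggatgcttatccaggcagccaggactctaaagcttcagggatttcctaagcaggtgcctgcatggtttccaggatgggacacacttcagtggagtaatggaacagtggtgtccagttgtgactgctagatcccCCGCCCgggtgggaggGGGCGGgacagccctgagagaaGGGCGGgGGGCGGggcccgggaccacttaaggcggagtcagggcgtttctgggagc

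Of the 7 gate genes, 6 had a promoter in the RefSeq table and E030037K01Rik did not. The GC box was found on either strand in 4 of these 6 (Ung, Ostm1, Ephb3 and Dhh), against 33% of 32544 promoters of the same length. TGACG was found in Ostm1, 38 bases before the start, and in Ephb3, 79 bases before the start, against 17.8% of all promoters. The full element TGACGTCA, which contains TGACG, was in 0 of the 6 and in 1.55% of all promoters. The 6 promoters were 64.4% G or C at the median (59.6 to 68.8%), and all promoters 52.4%. These matches describe letters and not bound sites.

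The 4 libraries held 51797891 to 75611263 UMIs. Low-RNA Ung nuclei were set beside 3 references in every library. Fmo5-gate nuclei, the class that the excluded genes mark, were the 5997 nuclei of the filter with a UMI in at least 4 of the 10 excluded genes. Other barcodes of the same depth were the 13572 with 500 to 3000 UMIs and at least 500 genes that failed the rule and had fewer than 4 of the 10 genes. Free RNA was the sum of the barcodes ranked 45000 to 90000 by UMIs. They held at most 384, 242, 318 and 309 UMIs in WT 1, WT 2, Dhx37-/- 1 and Dhx37-/- 2. Whether some of them were nuclei with little RNA was not tested. Levels are CPM of the sum over a class in a library, that is, the UMIs of a gene scaled to the same total in every sum. They are not divided by transcript length, and they are compared for 1 gene between classes, not between genes.

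Low-RNA Ung nuclei numbered 706 and 576 in WT replicates 1 and 2, and 1111 and 501 in Dhx37-/- replicates 1 and 2. They were 5.56% (95% Wilson interval 5.17 to 5.97) and 6.67% (6.16 to 7.21) of kept barcodes in the WT libraries, and 10.3% (9.75 to 10.9) and 4.35% (4.00 to 4.74) in the Dhx37-/- libraries. The Dhx37-/- libraries were the highest and the lowest of the 4, so the genotypes overlapped. The mean was 6.11% ± 0.783 (SD, n = 2) in WT and 7.33% ± 4.21 (SD, n = 2) in Dhx37-/-, a difference of 1.22 percentage points (two-sided exact permutation p = 1.0, where 2 against 2 libraries allow no p under 0.33). Without Dhx37-/- replicate 1 the difference was -1.76 points, and among the low-RNA Ung nuclei that held no UMI of 16 Sertoli markers it was -0.402 points. That condition kept 402 of 706 and 406 of 576 nuclei in WT and 549 of 1111 and 226 of 501 in Dhx37-/-, where the summed Sertoli markers were higher, so it moves with genotype and nothing is read from that value. As a share of barcodes of 500 to 3000 UMIs the values were 10.3%, 20.2%, 22.5% and 13.7% in WT 1, WT 2, Dhx37-/- 1 and Dhx37-/- 2, again overlapping, with a difference of 2.85 points (exact permutation p = 0.67). The intervals cover counting error only.

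The median low-RNA Ung nucleus held 1288 and 1436 UMIs in WT 1 and 2, and 1349 and 1474 in Dhx37-/- 1 and 2, from 991 to 1094 genes. The limit of 3000 UMIs bounds this depth. Of the kept barcodes meeting the gene conditions at any depth, 66.6, 52.3, 63.5 and 43.5% lay within it, in the same order. Within the UMI window the depths of the genotypes overlapped, with a difference of 49.5 UMIs (exact permutation p = 0.67), which was 123.5 UMIs without WT replicate 2, 112 without Dhx37-/- replicate 1, -24.5 without WT replicate 1 and -13 without Dhx37-/- replicate 2. It was 136 UMIs with at least 3 gate genes, 127.5 when barcodes were thinned before the gene conditions and 398 without the limit of 3000 UMIs. Fmo5-gate nuclei held 3295 to 3923 UMIs at the median, and other barcodes of the same depth 1001, 2320, 861 and 908 in the order WT 1, WT 2, Dhx37-/- 1 and Dhx37-/- 2. WT replicate 2 stood apart in that last class. The median mitochondrial share of low-RNA Ung nuclei was 0.216 to 0.384%.

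**Figure D1:**
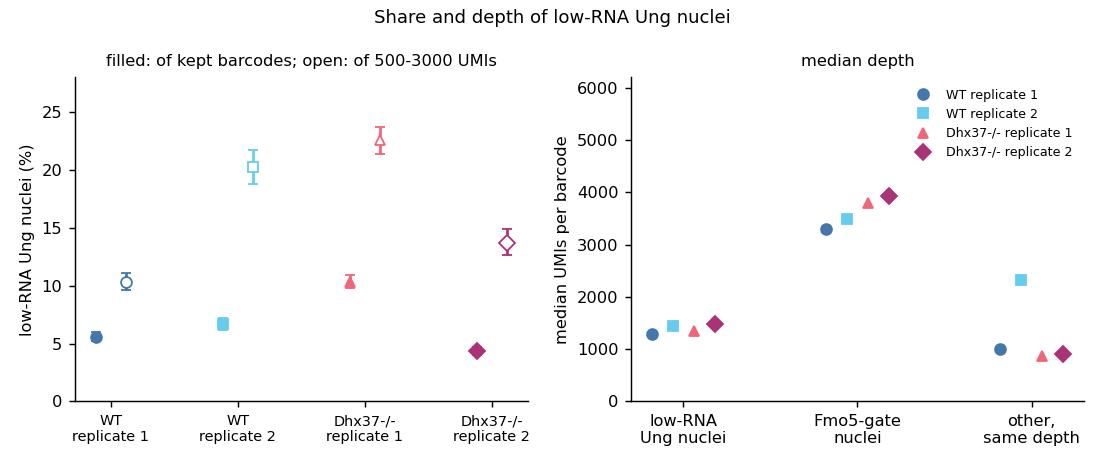
Left, low-RNA Ung nuclei in each library as a percentage of kept barcodes (filled) and of barcodes of 500 to 3000 UMIs (open), with 95% Wilson intervals. Right, median UMIs per barcode in each library for low-RNA Ung nuclei, Fmo5-gate nuclei and other barcodes of the same depth. Dhx37-/- replicate 1 has the highest share of kept barcodes (10.3%) and Dhx37-/- replicate 2 the lowest (4.35%), while medians of low-RNA Ung nuclei lie between 1288 and 1474 UMIs.

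The genes that chose these nuclei were at the following levels, given as a description. Where 4 values are given below, they are WT 1, WT 2, Dhx37-/- 1 and Dhx37-/- 2. Ung, the repair glycosylase, was at 437 and 637 CPM in WT 1 and 2, and at 727 and 653 CPM in Dhx37-/- 1 and 2. Its mean was 137 CPM in Fmo5-gate nuclei, 16.8 CPM in other barcodes of the same depth and 34.4 CPM in free RNA. Ostm1, the partner of the chloride transporter, was at 742, 1040, 1180 and 947 CPM, against means of 242, 45.7 and 108 CPM in those 3 references. All 4 libraries of low-RNA Ung nuclei lay above all 4 of each reference for both genes. Dhh, the hedgehog ligand, was at 342, 424, 478 and 446 CPM, against 131 CPM in Fmo5-gate nuclei and 43.2 CPM in free RNA. Ephb3, the ephrin receptor, was at 284 and 303 CPM in WT and at 186 and 147 CPM in Dhx37-/-, against 57.4 and 19.6 CPM. The WT libraries were the higher ones for Ephb3. The noncoding A230077H06Rik was at 1360, 1780, 1140 and 1090 CPM against 283 CPM in Fmo5-gate nuclei, 4930413G21Rik at 187, 316, 454 and 436 CPM against 54.8, and E030037K01Rik at 231, 284, 252 and 296 CPM against 31.8. Thus all 7 gate genes were present in Fmo5-gate nuclei as well, at lower levels in every library.

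The excluded genes were not absent. All but Impa2, which encodes an inositol monophosphatase, were lower in low-RNA Ung nuclei than in Fmo5-gate nuclei in all 4 libraries. Fmo5, a flavin monooxygenase, was at 36.7, 52.1, 53 and 53.7 CPM against a mean of 172 CPM in Fmo5-gate nuclei and 7.06 CPM in other barcodes of the same depth. Ppm1l, a protein phosphatase, was at 341, 212, 212 and 251 CPM against 800 and 49.9 CPM. Both therefore lay between the 2 references. Impa2 was at 155, 220, 286 and 250 CPM, close to the 252 CPM of Fmo5-gate nuclei.

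Transcripts of the gate genes were found in part of the nuclei only. The condition of at least 2 gate genes was also met by 46.7, 62.9, 65.6 and 63.1% of the deeper Fmo5-gate nuclei. A UMI of Ung was present in 45.0, 56.9, 54.9 and 58.7% of low-RNA Ung nuclei, in 21.2 to 41.0% of the deeper Fmo5-gate nuclei and in 1.89 to 2.68% of other barcodes of the same depth. Nuclei with a UMI in at least 5 Leydig cell markers, taken here for comparison, had one in 2.20 to 6.89%, at median depths of 4625 to 6096 UMIs. Whether these nuclei express Ung themselves was not tested. After each barcode was thinned to 500 UMIs, Ung was left in 23.1, 30.4, 29.0 and 28.5% of low-RNA Ung nuclei. It was left in 4.41, 8.92, 9.08 and 6.68% of Fmo5-gate nuclei and in 0 to 2.25% of nuclei with Leydig cell markers. The shares in low-RNA Ung nuclei thus stood above those in nuclei with Leydig cell markers in every library at equal depth, as the rule requires of genes it used.

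**Figure D2:**
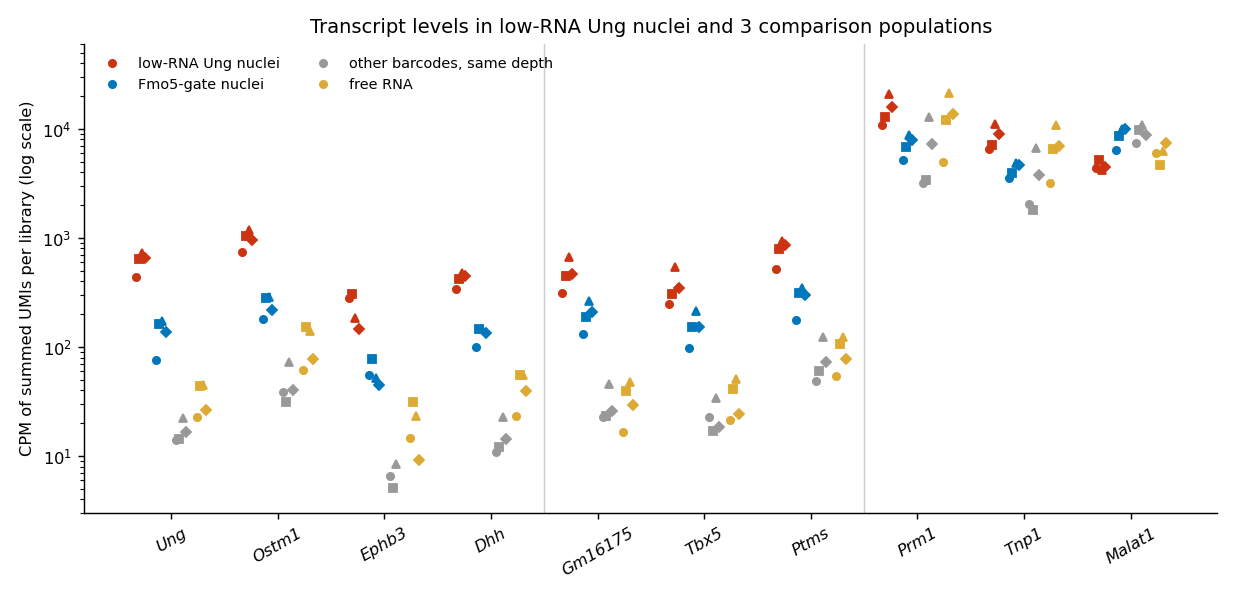
Levels (CPM, log axis) of 4 gate genes, 3 leading genes, Prm1, Tnp1 and Malat1 in low-RNA Ung nuclei, Fmo5-gate nuclei, other barcodes of the same depth and free RNA, with 1 point for each library (circle WT 1, square WT 2, triangle Dhx37-/- 1, diamond Dhx37-/- 2). For the gate and leading genes low-RNA Ung nuclei lie above the other 3 classes in all 4 libraries, with Ung at 437 to 727 CPM, while Tnp1 is above the free RNA of its own library in 4 of 4 libraries and Prm1 in 3 of 4, and Malat1 is lower than in Fmo5-gate nuclei.

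Other genes followed the same order. Of 3435 genes with at least 50 UMIs in low-RNA Ung nuclei of each library, those outside the rule were ranked. The measure was the ratio to other barcodes of the same depth, after 10 CPM were added to both. The 15 highest were Gm16175, Tbx5, Gm43852, Dnajc17, Tmem151a, Ptms, Gm38004, Gm17168, Nr4a2, Cpne5, Mgat5b, Cd8b1, Slc17a7, Gm50394 and Calml4, with ratios from 8.09 to 13.3. All 15 were also above Fmo5-gate nuclei and above free RNA in all 4 libraries. Across genes, 25.8% of 14110 were above other barcodes of the same depth in all 4 libraries, 47.5% of 12142 above Fmo5-gate nuclei and 30.9% of 13335 above free RNA. Being chosen for their level, these 15 carry no test.

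Several of these encode nuclear or signalling proteins. Tbx5, a T-box transcription factor known from heart and limb, was at 249 and 305 CPM in WT and at 538 and 350 CPM in Dhx37-/-, against 154 CPM in Fmo5-gate nuclei and 34.4 CPM in free RNA. Nr4a2, an orphan nuclear receptor, was at 109, 148, 194 and 202 CPM against 58.5 and 16.8 CPM. Both were highest in Dhx37-/- libraries and lowest in WT replicate 1. Ptms, which encodes the small acidic protein parathymosin, was at 514, 799, 933 and 867 CPM against 285 and 91.0 CPM. Dnajc17, a DnaJ-domain co-chaperone, was at 335, 566, 589 and 648 CPM against 218 and 66.3 CPM. Slc17a7, the vesicular glutamate transporter known from neurons, was at 305, 355, 536 and 587 CPM against 231 and 52.9 CPM. WT replicate 1 was the lowest library for each of these 5 genes. Gm16175, annotated as antisense, had the largest ratio and was at 314, 443, 669 and 470 CPM against 198 and 33.3 CPM.

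Cd8b1, which encodes a chain of the CD8 coreceptor of T cells, was at 578 and 701 CPM in WT and at 243 and 225 CPM in Dhx37-/-, against 154 CPM in Fmo5-gate nuclei and 81.4 CPM in free RNA. Cd247, the zeta chain of the T cell receptor complex, was at 283, 390, 381 and 357 CPM against 108 and 33.1 CPM. Of 6 T cell markers 1, Cd247, was above other barcodes of the same depth in all 4 libraries, against 25.8% of all genes. Cd3e was at 0 CPM in 3 libraries and at 1.23 CPM in Dhx37-/- replicate 1, and Cd3g at 0 to 1.85 CPM.

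Against Fmo5-gate nuclei the 10 largest ratios were 3.10 to 4.34 and belonged to Gm17168, Mknk2, Mfsd12, Ppp1r16a, Gm38004, Hsp90ab1, Mapk8ip3, Bst2, Map3k13 and Hnrnpa0. Mknk2, a kinase that phosphorylates the translation factor eIF4E, was at 62.8, 82.5, 100 and 99.9 CPM against 14.2 CPM. Hnrnpa0, an RNA-binding protein, was at 300.0, 406, 388 and 420 CPM against 113 CPM in Fmo5-gate nuclei and 117 CPM in free RNA. Hsp90ab1, a cytosolic chaperone, was at 136 to 203 CPM against 43.5 CPM in Fmo5-gate nuclei, but below its free RNA level (mean 174 CPM) in all 4 libraries.

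The genes lowest against Fmo5-gate nuclei were Kcnb2, Gm31508, Gm20713, 4930509J09Rik, Gm39204, Gss, Dicer1, Rarb, Lrrtm3 and Gm41815, with ratios of 0.179 to 0.251. Kcnb2, a voltage-gated potassium channel, was at 259, 191, 91.1 and 177 CPM against 984 CPM, and it was lower in all 4 libraries. Dicer1, the RNase that matures microRNAs, was at 34.8, 32.6, 22.8 and 22.5 CPM against 146 CPM. Rarb, a retinoic acid receptor, was at 86.0, 62.9, 27.1 and 38.7 CPM against 245 CPM.

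These sets differed in the length of the gene in the genome, which the rule did not use. The median span from gene start to end was 8.94 kb for the gate genes and 14.7 kb for the 15 leading genes, but 66.3 kb for the excluded genes and 107 kb for the 10 genes lowest against Fmo5-gate nuclei. It was 29.7 kb over the 3435 genes with at least 50 UMIs in low-RNA Ung nuclei. Over the 9414 such genes of Fmo5-gate nuclei it was 28.1 kb. The sets overlapped: gate genes ran from 0.993 to 119 kb, with A230077H06Rik at 82.5 kb and Ostm1 at 119 kb. Leading genes ran from 0.357 to 82.6 kb, excluded genes from 22.7 to 651 kb and the 10 lowest from 29.6 to 436 kb. The classes also differed over all UMIs. Genes shorter than 5 kb took 18.1% of UMIs in low-RNA Ung nuclei and 11.3% in Fmo5-gate nuclei (means of the libraries). They took 14.0% in other barcodes of the same depth and 21.9% in free RNA. Genes of 100 kb or more took 19.6%, 29.1%, 25.8% and 16.1%. Low-RNA Ung nuclei lay between Fmo5-gate nuclei and free RNA in both length classes in 3 of 4 libraries. In WT replicate 1 they were past free RNA, with 14.2% against 13.1% in genes under 5 kb and 24.6% against 26.2% in genes of 100 kb or more. Noncoding genes took 15.9% of UMIs in low-RNA Ung nuclei and 19.7% in Fmo5-gate nuclei.

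Whether the nuclei were condensing spermatids was checked with 17 markers. Summed, they made up 32660, 35920, 59340 and 49570 CPM in WT 1, WT 2, Dhx37-/- 1 and Dhx37-/- 2. The means were 23320 CPM in Fmo5-gate nuclei and 21080 CPM in other barcodes of the same depth. In free RNA the sum was 17580, 35550, 59990 and 43310 CPM in the same order (mean 39110 CPM). The nuclei were thus below the free RNA of their own library in Dhx37-/- 1, and above it in WT 1, WT 2 and Dhx37-/- 2. All 17 were above other barcodes of the same depth in all 4 libraries (25.8% of all genes) and 15 above Fmo5-gate nuclei (47.5%), the exceptions being Fscn3 and Ttc24. Against free RNA, where 30.9% of all genes were above, 9 were above in all 4 libraries (Tnp1, Odf2, Gapdhs, Akap4, Spem1, Cabs1, Fscn3, Gsg1 and Ttc24) and 2 were below (Prm3 and Odf1). None of the 17 was among the 15 leading genes.

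Tnp1, a transition protein, was at 6530, 7040, 11100 and 8880 CPM against means of 4230 CPM in Fmo5-gate nuclei and 6860 CPM in free RNA. Prm1, a protamine, was at 10800, 12800, 21000 and 15700 CPM against 7170 and 13000 CPM, above the free RNA of its own library in 3 of 4 libraries. Prm2 was at 5300, 5660, 9450 and 8910 CPM against 4100 and 6720 CPM, above free RNA in 2. Spem1, a protein of late sperm maturation, was at 208, 178, 291 and 220 CPM against 93.0 and 110 CPM. Akap4, the main anchoring protein of the fibrous sheath of the sperm tail, was at 491, 368, 390 and 412 CPM against 272 and 276 CPM. In WT replicate 1 the free RNA held less of the protamines, 4940 CPM of Prm1 and 2870 CPM of Prm2, and low-RNA Ung nuclei were above it for both. Spem1 and Akap4 were above free RNA in every library. Since 9 of the 17 markers, and not all of them, were above free RNA in all 4 libraries, the nuclei keep the name of their rule here.

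The 16 Sertoli cell markers summed to 412, 295, 607 and 598 CPM in low-RNA Ung nuclei, with 0 of 16 above other barcodes of the same depth and 15 of 16 below free RNA in all 4 libraries (background of 47.1% below). The 11 Leydig cell markers summed to 328, 195, 576 and 508 CPM and all 11 were below free RNA in all 4 libraries. If every Leydig transcript in low-RNA Ung nuclei were free RNA, free RNA would make up 47.9, 30.3, 36.3 and 38.5% of their UMIs. The same estimate was 30.2% (mean of the libraries) in Fmo5-gate nuclei and 66.2% in other barcodes of the same depth. The estimate depended on the markers: in low-RNA Ung nuclei it was 46.2, 52.0, 58.7 and 54.8% from the Sertoli markers, 53.7, 53.1, 43.4 and 29.2% from the fibroblast markers and 71.1, 115, 78.3 and 64.5% from the macrophage markers, which in WT replicate 2 were thus above their level in free RNA. Of the macrophage markers 0 of 12 were above other barcodes of the same depth in all 4 libraries, and likewise 0 of 8 fibroblast and 0 of 6 peritubular myoid markers, but 2 of 10 endothelial ones were (Vwf and Egfl7), at 12.5 to 48.8 CPM.

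Of 16 round spermatid markers 11 were below free RNA in all 4 libraries (47.1% of all genes), 10 below other barcodes of the same depth (51.4%) and 12 above Fmo5-gate nuclei (47.5%). Acrv1, an acrosomal protein, was at 174, 194, 135 and 189 CPM against 133 CPM in Fmo5-gate nuclei and 365 CPM in free RNA. Crem, the transcription factor that switches on spermatid genes, was at 678, 533, 461 and 492 CPM, below Fmo5-gate nuclei (781 CPM) and above free RNA (368 CPM) in every library. Of 16 spermatocyte markers 13 were below free RNA in all 4 libraries, and of 13 spermatogonial markers, which summed to 286 to 367 CPM, 8 were, both against the same 47.1%.

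Of 25 genes of uracil and base excision repair 3 were above other barcodes of the same depth in all 4 libraries, namely Ung itself, Tdg and Aptx, and 11 were below. Over all genes these shares were 25.8% and 51.4%, and nothing is read from the counts of this list or of those that follow. Tdg, another glycosylase, was at 18.4, 25, 16.6 and 27.5 CPM against 11.6 CPM in other barcodes of the same depth and 27.8 CPM in Fmo5-gate nuclei. Xrcc1, the scaffold of the repair complex, was at 8.69, 19.5, 32.0 and 26.2 CPM against 28.5 CPM in other barcodes of the same depth and 33.7 CPM in free RNA. Neil1, a glycosylase for oxidised bases, had no UMI in the low-RNA Ung nuclei of any library.

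Of 23 chloride transport and lysosomal genes 3 were above other barcodes of the same depth in all 4 libraries (Ostm1, Clcn4 and Tfe3) and 15 were below. Clcn7, which encodes the transporter that binds the OSTM1 protein, was at 3.86, 4.34, 3.69 and 3.75 CPM against 9.89 CPM in other barcodes of the same depth. Tfe3, a transcription factor of lysosomal genes, was at 44.4, 27.1, 70.8 and 67.4 CPM against 12.6 CPM there and 42.0 CPM in Fmo5-gate nuclei. Lamp1, a membrane protein of lysosomes, was at 80.2, 68.4, 127 and 126 CPM, below its free RNA level in every library.

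In the ephrin list 5 of 22 genes were above other barcodes of the same depth in all 4 libraries, namely the receptors Ephb1, Ephb2, Epha2 and the gate gene Ephb3, and the ligand Efnb2, against 25.8% of all genes. Ephb2 was at 198, 341, 315 and 301 CPM against 27.7 CPM there, 176 CPM in Fmo5-gate nuclei and 36.0 CPM in free RNA. Ephb1 was at 89.8, 118, 54.8 and 54.9 CPM, and Efnb2 at 86.0, 138, 150 and 129 CPM. Ephb2 and Ephb3 were higher than in Fmo5-gate nuclei in all 4 libraries, whereas Ephb1 (245 CPM there) and Efnb2 (161 CPM there) were lower in all 4.

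In the hedgehog list 3 of 18 genes were above other barcodes of the same depth in all 4 libraries, the ligand Dhh, the transcription factor Gli2 and its inhibitor Sufu. Gli2 was at 83.1, 129, 81.3 and 88.7 CPM against 51.9 CPM in Fmo5-gate nuclei and 22.9 CPM in other barcodes of the same depth. Sufu was at 197, 170, 168 and 156 CPM against 298 and 135 CPM. The receptor Ptch1, itself a target of the pathway, was at 9.66, 8.68, 3.69 and 3.75 CPM against 4.62 and 19.1 CPM, and Gli1, another target, at 0 to 1.93 CPM.

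Of 32 genes of the exchange of histones for protamines 21 were above Fmo5-gate nuclei in all 4 libraries, and 10 were above and 11 below other barcodes of the same depth. The spermatid linker histone H1f9 was at 532, 582, 869 and 711 CPM against 329 CPM in Fmo5-gate nuclei and 649 CPM in free RNA. The chromatin remodeller Chd5 was at 479, 508, 552 and 543 CPM against 725 CPM in Fmo5-gate nuclei and 305 CPM in free RNA. Brdt, the bromodomain protein that binds acetylated histones, was at 108, 59.7, 73.9 and 64.9 CPM, below its free RNA mean of 162 CPM. H1f9 was thus nearer to free RNA, and Chd5 lay between both references.

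In the remaining lists, of 38 flagellum and manchette genes 8 were above and 25 below in all 4 libraries, of 32 acrosome genes 6 and 20, and of 24 regulators of spermatid transcription 5 and 13. Akap3, a fibrous sheath protein, was at 398, 301, 369 and 368 CPM against 181 CPM in other barcodes of the same depth and 223 CPM in free RNA. Spaca9, a sperm acrosome-associated protein, was at 436, 579, 744 and 713 CPM against 261 and 483 CPM. Of 30 p53 targets and apoptosis genes 6 were above and 18 below. Bcl2l11, which encodes the apoptosis activator BIM, was at 373, 398, 403 and 402 CPM against 134 CPM in other barcodes of the same depth and 247 CPM in Fmo5-gate nuclei. Cdkn1a, the cell cycle inhibitor p21, was at 43.5, 47.7, 47.4 and 52.4 CPM against 9.30 and 47.2 CPM. The libraries lay close together for both of these genes.

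Malat1, a noncoding RNA that stays in the nucleus, was at 4390, 5190, 4210 and 4510 CPM in low-RNA Ung nuclei. It was at means of 8710 CPM in Fmo5-gate nuclei, 9210 CPM in other barcodes of the same depth and 6070 CPM in free RNA. Low-RNA Ung nuclei were below both classes of barcodes in all 4 libraries and below free RNA in 3.

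The nuclei are described next by the number of gate genes detected, which is the measure of the rule itself. The 15 leading genes were picked for being high inside the rule, so their levels along this number are a description from which nothing is read. Their sum was 394 CPM (mean of the libraries) in barcodes of the same depth with 0 gate genes and 796 CPM with 1, just outside the rule. Just inside it, 952 nuclei with 2 gate genes had 3133 CPM. It was 6340 CPM in 769 nuclei with 3, 7543 CPM in 602 with 4 and 8191 CPM in 571 with 5 or more. Fmo5-gate nuclei had 2617 CPM and free RNA 695 CPM.

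Malat1 was at 9204 CPM with 0 gate genes, 6430 CPM with 2 and 3393 CPM with 5 or more. The summed protamine and transition protein transcripts (Prm1, Prm2, Prm3, Tnp1 and Tnp2) were at 16720 CPM with 0, 29940 CPM with 2 and 42180 CPM with 5 or more, against 33420 CPM in free RNA. By depth, the 15 leading genes were at 5829 CPM in 740 nuclei under 1000 UMIs, at 7802 CPM in 1452 of 1000 or more and under 2000 UMIs, and at 4063 CPM in 702 of 2000 to 3000 UMIs. In 616 barcodes of over 3000 and up to 4000 UMIs that met the gene conditions they were at 1417 CPM, and in 345 barcodes inside the UMI window with 4 of the excluded genes at 5458 CPM.

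Low-RNA Ung nuclei also lay together when the 17 genes of the rule were left out. Among the 20 nearest neighbours of a low-RNA Ung nucleus, in a principal component space of barcodes of 500 to 3000 UMIs, 54.8% ± 4.81 (SD over the 4 libraries, 47.8 to 58.1%) were low-RNA Ung nuclei, against 8.55% ± 2.21 for barcodes of that depth outside the class. The share was 33.3% for nuclei with 2 gate genes, 60.6% with 3, 66.3% with 4 and 70.8% with 5 or more. Neighbours came from the same library in 48.0% of cases for low-RNA Ung nuclei and in 51.9% for barcodes outside the class.

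**Figure D3:**
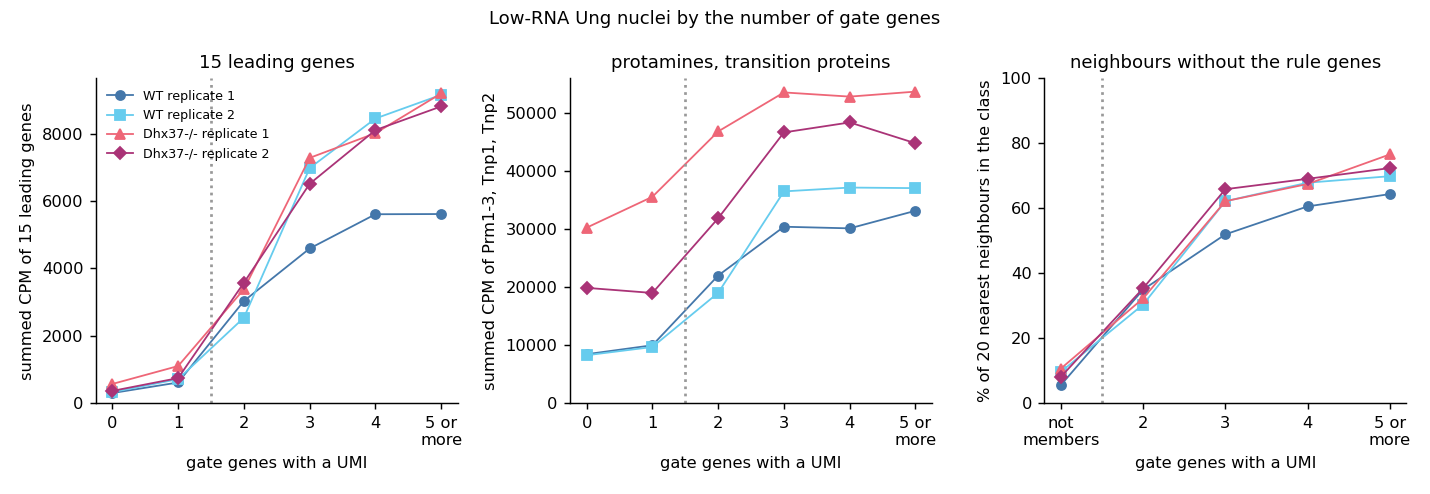
Values by the number of gate genes with a UMI, in barcodes of 500 to 3000 UMIs. There is 1 line for each library, and the limit of the rule is dotted. The left and middle panels hold barcodes with fewer than 4 excluded genes. The right panel draws on all barcodes of this depth, and its first point is those outside the class at any number of gate genes. Left, summed CPM of the 15 leading genes (mean 394 at 0 gate genes, 3133 at 2 and 8191 at 5 or more), middle, summed CPM of protamine and transition protein genes, and right, share of the 20 nearest neighbours that are low-RNA Ung nuclei, which goes from 33.3% at 2 to 70.8% at 5 or more.

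The comparison of genotypes asks whether nuclei that do not carry the deletion by design differed in testes whose Sertoli cells lacked Dhx37. UMIs were summed per library and tested with edgeR (quasi-likelihood test, p-values adjusted by Benjamini-Hochberg over all genes tested). Of 11811 genes outside the rule 13 passed an adjusted p of 0.05, or 0.11%, with 5 higher (0.0423%) and 8 lower (0.0677%) in Dhx37-/-. Unadjusted, 2569 genes (21.8%) had a p under 0.05, of which 1230 (10.4%) were higher. With the rule genes, 51.4% of 11828 genes did not overlap between genotypes and 48.2% had a higher estimate in Dhx37-/-, with a median log2 fold change of -0.02.

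This count rested on single libraries and settings. It was 1104 without WT replicate 1, 1718 without WT replicate 2, 6 without Dhx37-/- replicate 1 and 71 without Dhx37-/- replicate 2, where the lone library of a genotype is assumed to vary like the other 2. It was 0 (832 genes at an unadjusted p under 0.05) after free RNA was subtracted and 0 (2711 genes) without the limit of 3000 UMIs. By DESeq2 it was 284. The share subtracted was the one estimated from Leydig markers, and shares from other markers were not tried. After subtraction 11 of the 13 genes could be tested, while Ptgds and Cst3 kept too few UMIs. The log2 fold changes of the 11 kept their sign, among them 2.08 for Arl9, -2.25 for Gm39556, -1.89 for Parp16 and -2.18 for Opcml. Of these 11 only that of Gm42826 moved by over 1.5 times, to -0.94 ± 1.40 (SE).

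The genes higher in Dhx37-/- included secreted proteins. Levels here are CPM scaled by the trimmed mean of M-values (TMM) over the genes tested. Ptgds, which encodes prostaglandin D2 synthase, was at 40.2 and 37.4 CPM in WT and at 241 and 132 CPM in Dhx37-/-, a log2 fold change of 2.28 ± 0.317 (SE; adjusted p = 0.0105, edgeR). Defb19, a beta-defensin, was at 110 and 165 CPM against 436 and 351 CPM (1.53 ± 0.252; adjusted p = 0.0304, edgeR). Cst3, which encodes the protease inhibitor cystatin C, was at 24.1 and 39.7 CPM against 111 and 109 CPM (1.79 ± 0.312; adjusted p = 0.0432, edgeR), and Cst12, of the same family, at 37.2 and 38.5 CPM against 126 and 110 CPM (1.64 ± 0.28; adjusted p = 0.0382, edgeR). The genotypes did not overlap for any of these 4 genes. Without Dhx37-/- replicate 1 all 4 lost the call, with log2 fold changes of 1.77, 1.36, 1.78 and 1.55 for Ptgds, Defb19, Cst3 and Cst12 and adjusted p of 0.1, 0.189, 0.143 and 0.257 (edgeR). All 4 also lost the call after thinning, with 2.04, 1.23, 1.37 and 1.48 in the same order (adjusted p = 0.0681, 0.171, 0.178 and 0.171, edgeR). So they did without the limit of 3000 UMIs, with 2.33, 1.45, 1.60 and 1.44 (0.157, 0.178, 0.189 and 0.193). Defb19, Cst3 and Cst12 lost it with at least 3 gate genes, with 1.25, 1.58 and 1.61 (0.117, 0.125 and 0.117). Cst3 lost it with Dhh left out of the gate (1.70, adjusted p = 0.0537, edgeR).

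In other barcodes of the same depth these 4 were called too, with log2 fold changes of 3.103, 2.056, 2.055 and 1.729 for Ptgds, Defb19, Cst12 and Cst3. Their adjusted p was 0.00933, 0.0118, 0.0102 and 0.0154 in that class (edgeR). The same contrast in free RNA had estimates of the same sign for these 4. Ptgds was at 91.2 and 110 CPM in the free RNA of WT and at 692 and 414 CPM in that of Dhx37-/-, a log2 fold change of 2.46, and Defb19, Cst12 and Cst3 had 1.56, 1.5 and 1.60 there. All 4 were at higher levels in free RNA than in low-RNA Ung nuclei in every library. The summed Sertoli cell markers in low-RNA Ung nuclei were 412 and 295 CPM in WT and 607 and 598 CPM in Dhx37-/-, and the summed Leydig cell markers 328 and 195 against 576 and 508 CPM. Among the low-RNA Ung nuclei with no UMI of the 16 Sertoli markers, a condition that kept a smaller part of the Dhx37-/- nuclei and under which 18 genes were called, Ptgds had a log2 fold change of 2.16 (adjusted p = 0.00376, edgeR) and Defb19 of 1.61 (adjusted p = 0.00873, edgeR). Cst12 had 1.47 and Cst3 1.53 there, with adjusted p of 0.0917 and 0.0875 (edgeR), past the threshold for neither. The 16 markers are a small part of the UMIs of a nucleus. A nucleus without a UMI of them can still hold Sertoli or free RNA, so nothing is read from these values. After free RNA was subtracted Defb19 had 1.59 and Cst12 2.02, both with an adjusted p of 0.495 (edgeR). The share subtracted was that from Leydig markers, 36.3 and 38.5% in Dhx37-/- 1 and 2. From Sertoli markers it was 58.7 and 54.8% there, from fibroblast markers 43.4 and 29.2% and from macrophage markers 78.3 and 64.5%. Subtraction of those shares was not tested. Before the subtraction Ptgds had 40, 33, 370 and 102 UMIs and Cst3 24, 35, 170 and 84. After it both kept too few UMIs to be tested.

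Arl9, a small GTPase of the ADP-ribosylation factor-like family, was the remaining gene higher in Dhx37-/-. It was at 41.2 and 37.4 CPM in WT and at 121 and 145 CPM in Dhx37-/- (1.75 ± 0.279; adjusted p = 0.0256, edgeR), with a log2 fold change of 0.39 in Fmo5-gate nuclei, 0.68 in other barcodes of the same depth and 0.98 in free RNA. It stayed called without Dhx37-/- replicate 1 (adjusted p = 0.0443, edgeR). It was not called without the limit of 3000 UMIs (0.52; adjusted p = 0.398, edgeR), with at least 3 gate genes (adjusted p = 0.0657), after thinning (0.171) or after free RNA was subtracted (0.495).

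Of the 8 genes lower in Dhx37-/-, 5 encode proteins. Parp16, an ADP-ribosyltransferase of the endoplasmic reticulum, was at 209 and 221 CPM in WT and at 67.2 and 55.7 CPM in Dhx37-/- (-1.79 ± 0.246; adjusted p = 0.0105, edgeR). Kcnip4, which binds Kv4 potassium channels, was at 424 and 323 CPM against 114 and 122 CPM (-1.67 ± 0.235; adjusted p = 0.0105, edgeR). Cd8b1, one of the leading genes, was at 601 and 732 CPM against 257 and 233 CPM (-1.44 ± 0.223; adjusted p = 0.0247, edgeR). Opcml, a cell adhesion molecule, was at 85.4 and 73.7 CPM against 16.3 and 20.7 CPM (-2.13 ± 0.337; adjusted p = 0.0256, edgeR), and Adamtsl1, a secreted matrix protein, had a log2 fold change of -1.60 ± 0.282 (adjusted p = 0.0437, edgeR). The other 3 were the predicted genes Gm39556, Gm42826 and Gm10655, with log2 fold changes of -2.09, -1.95 and -1.72. Without the limit of 3000 UMIs Kcnip4 had -0.43 (adjusted p = 0.448, edgeR) and Adamtsl1 -0.85 (adjusted p = 0.265, edgeR). The other 6 were not called without that limit either (adjusted p = 0.0622 to 0.134, edgeR). Kcnip4 and Adamtsl1 also lost the call with at least 3 gate genes (-1.34, adjusted p = 0.117, and -1.33, adjusted p = 0.128, edgeR). Opcml (-1.90) and Adamtsl1 (-1.55) lost it with Dhh left out of the gate (adjusted p = 0.0537 for each, edgeR). With at least 1000 UMIs Gm10655 (-1.56, 0.056) and Adamtsl1 (-1.59, 0.0527) lost it, and in nuclei without Sertoli UMIs Gm10655 did (-1.52, 0.0875, edgeR). After thinning 6 of the 8 lost it, namely Kcnip4 (-1.22, adjusted p = 0.187), Adamtsl1 (-1.16, 0.178), Opcml (-1.48, 0.201), Gm42826 (-1.55, 0.171), Cd8b1 (-1.5, 0.055) and Parp16 (-1.76, 0.0519, edgeR). Opcml had -1.27 (adjusted p = 0.179, edgeR) with at least 3 gate genes and -3.23 (adjusted p = 0.00112, edgeR) in nuclei without Sertoli UMIs. Without Dhx37-/- replicate 1 the 5 protein-coding genes lost the call, with adjusted p of 0.0523 for Parp16, 0.143 for Kcnip4, 0.162 for Cd8b1, 0.237 for Opcml and 0.189 for Adamtsl1 (edgeR), and so did Gm10655 (0.189). Without Dhx37-/- replicate 2 Cd8b1 (0.0629), Adamtsl1 (0.1) and Gm10655 (0.0649) lost it. In free RNA the 8 estimates were -2.20 to -1.30, all of the same sign. In other barcodes of the same depth Gm42826 (-2.327), Opcml (-1.77), Gm39556 (-1.444), Parp16 (-1.391) and Adamtsl1 (-1.21) were called too. Their adjusted p was 0.00933, 0.0161, 0.0257, 0.0318 and 0.0318 in that class (edgeR). Kcnip4, Cd8b1 and Gm10655 were not called there (adjusted p = 0.0863, 0.0892 and 0.0735, edgeR).

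**Figure D4:**
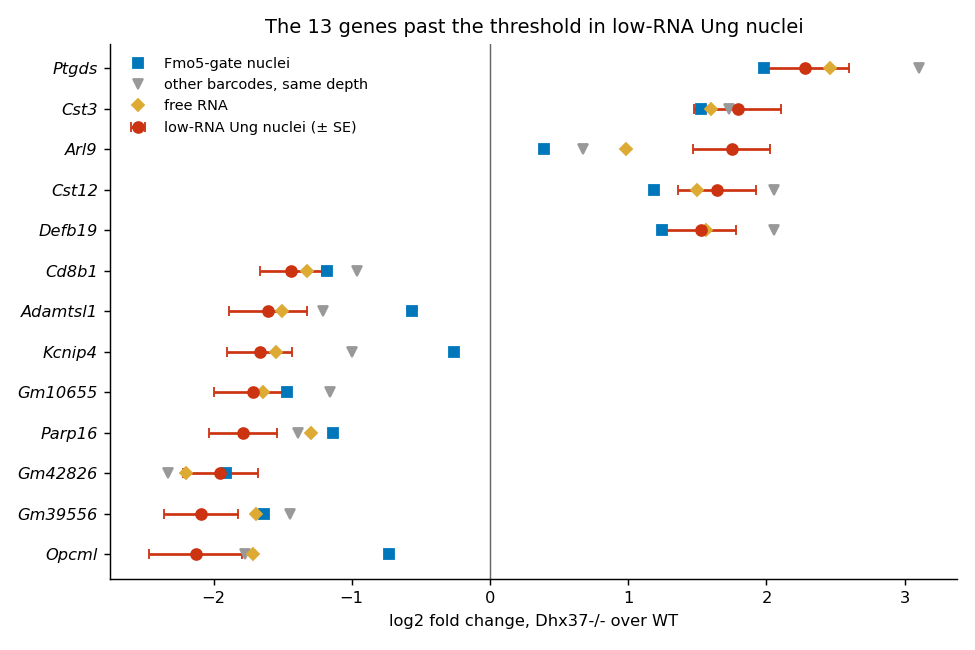
Log2 fold change of Dhx37-/- over WT of the 13 genes called in low-RNA Ung nuclei (bars are SE), and of the same genes in Fmo5-gate nuclei, other barcodes of the same depth and free RNA. All 4 classes have the same sign for each of the 13 genes, and Kcnip4 is at -1.67 in low-RNA Ung nuclei and at -0.26 in Fmo5-gate nuclei.

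The genes of the rule chose the nuclei, so their differences between genotypes are given as a description, with no test. The log2 fold changes of the 7 gate genes were -0.80 for Ephb3, 0.83 for 4930413G21Rik, -0.48 for A230077H06Rik, 0.37 for Ung, 0.28 for Dhh, 0.26 for Ostm1 and 0.09 for E030037K01Rik. Those of the 10 excluded genes ran from -1.03 for Efemp1 to 0.53 for Impa2. Dhx37 itself had 8, 9, 16 and 8 UMIs in WT 1, WT 2, Dhx37-/- 1 and Dhx37-/- 2, which was 7.73, 9.77, 9.85 and 9.99 CPM, too few to be tested. Since the Cre is driven in Sertoli cells, these levels do not check the deletion.

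None of the marker and pathway lists held a gene called by edgeR in these sums. Of the 17 condensing spermatid markers 16 had a higher estimate in Dhx37-/- (48.2% of all genes) and 11 of them an unadjusted p under 0.05 (10.4% of all genes), with a median log2 fold change of 0.57 against -0.02 over all genes. The median of the same 17 was 0.26 in Fmo5-gate nuclei and 0.86 in free RNA. All genes under 5 kb had a median of 0.40 in low-RNA Ung nuclei, and the 17 were not compared with genes of their own length. Tnp2, a transition protein, was at 3980 and 4480 CPM in WT and at 9610 and 7660 CPM in Dhx37-/- (1.03; adjusted p = 0.0735, edgeR), and Prm2 had 0.75 (adjusted p = 0.12, edgeR). Without a filter on low counts and by DESeq2 both were called, Tnp2 at adjusted p = 9.32e-07 (edgeR) and 0.000119 (DESeq2), and Prm2 at 0.00088 (edgeR) and 0.00466 (DESeq2). Tnp2 was also called with fewer than 2 excluded genes (adjusted p = 0.0479, edgeR) and without Dhx37-/- replicate 2 (0.00895), and both were without WT replicate 1 (0.00193 for Tnp2 and 0.0305 for Prm2) and without WT replicate 2 (8.02e-05 and 0.00615). Without Dhx37-/- replicate 1 neither was called (adjusted p = 0.633 for Tnp2 and 0.76 for Prm2, edgeR). Nor was either with at least 3 gate genes (0.158 and 0.249), after thinning (0.217 and 0.296), without the limit of 3000 UMIs (0.342 and 0.476), in nuclei without Sertoli UMIs (0.133 and 0.227), with free RNA subtracted (0.495 and 0.497) or with the replicate block (0.2 and 0.39). Prm1 (0.65; adjusted p = 0.2, edgeR) and Tnp1 (0.57; adjusted p = 0.218, edgeR) were called without a filter (0.00172 and 0.0149) and without WT replicate 2 (0.00959 and 0.0392), and by DESeq2 Prm1 was (0.0357) and Tnp1 was not (0.0503). The levels of both genotypes did not overlap for 16 of the 17 markers, against 51.4% of all genes.

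Of 11 Sertoli cell markers with enough UMIs 8 had a higher estimate in Dhx37-/- (median 0.98), and of 10 Leydig cell markers all 10 (median 0.96), against 48.2% of all genes. The medians of these markers were 0.69 and 0.93 in free RNA. In the pathway lists the median was 0.29 over 17 genes of base excision repair, 0.36 over 15 chloride transport and lysosomal genes, -0.12 over 8 ephrin genes and -0.20 over 5 hedgehog genes. It was 0.15 over 26 genes of histone exchange, 0.23 over 24 regulators of spermatid transcription, -0.07 over 37 flagellum genes, 0.15 over 31 acrosome genes and 0.07 over 14 p53 targets and apoptosis genes. None of these genes passed the edgeR test in these sums.

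Estimates between genotypes followed gene length, for which the marker and pathway lists above were not matched. In low-RNA Ung nuclei the median log2 fold change was 0.40 for 1832 genes under 5 kb, 0.20 for 3232 genes of 5 to 20 kb, -0.11 for 4730 of 20 to 100 kb and -0.49 for 1992 of 100 kb or more. Higher estimates in Dhx37-/- made up 75.7% of the shortest class and 14.7% of the longest. The medians of the shortest and the longest class were 0.26 and -0.26 in Fmo5-gate nuclei, 0.55 and -0.50 in other barcodes of the same depth, and 0.50 and -0.63 in free RNA, so the order was the same in each class of barcodes.

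**Figure D5:**
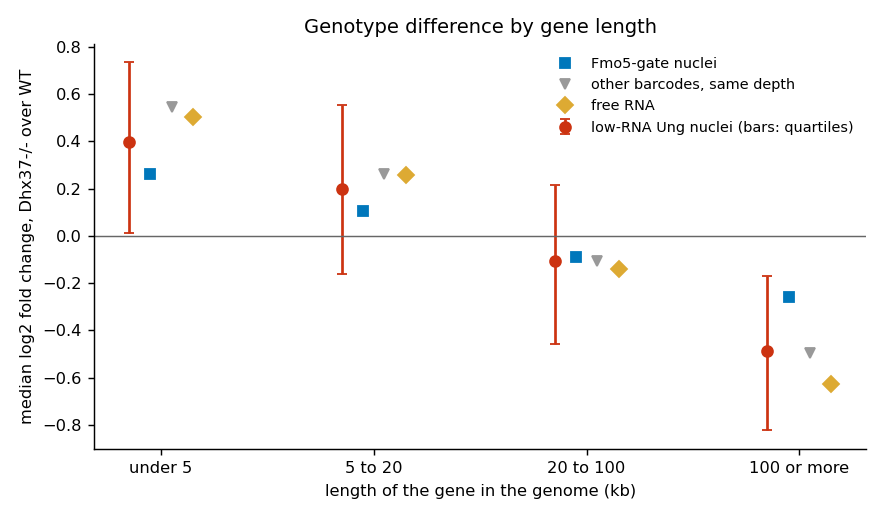
Median log2 fold change of Dhx37-/- over WT by the length of the gene in the genome (kb), in low-RNA Ung nuclei (bars are quartiles over genes), Fmo5-gate nuclei, other barcodes of the same depth and free RNA. In all 4 classes the median is above 0 for genes under 5 kb (0.40 in low-RNA Ung nuclei) and below 0 for genes of 100 kb or more (-0.49).

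The same contrast called 0 genes in Fmo5-gate nuclei (1791 at an unadjusted p under 0.05), 0 in free RNA (4113) and 898 in other barcodes of the same depth by edgeR. The difference between the genotype effect in low-RNA Ung nuclei and that in Fmo5-gate nuclei was tested as an interaction with the library as a block. Of 18810 genes 100 passed (0.532%), 10 with a more positive change in low-RNA Ung nuclei than in Fmo5-gate nuclei (0.0532%) and 90 with a more negative one (0.478%). The count was 3 without Dhx37-/- replicate 1, 170 without Dhx37-/- replicate 2 and 11 when Fmo5-gate nuclei were limited to 500 to 3000 UMIs. The median span was 134 kb for the 90 genes, 13.5 kb for the 10 and 20.9 kb for all genes tested.

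Kcnip4 had the smallest p, with a difference of -1.38 ± 0.171 (SE) on the log2 scale (adjusted p = 3.64e-06, edgeR), from -1.67 in low-RNA Ung nuclei and -0.26 in Fmo5-gate nuclei. Against Fmo5-gate nuclei of 500 to 3000 UMIs its difference was -0.66 (adjusted p = 0.281, edgeR). Camk4, a calcium and calmodulin-dependent kinase of spermatids, was at 435 and 335 CPM in WT and at 115 and 214 CPM in Dhx37-/- in low-RNA Ung nuclei. Its difference was -1.18 (adjusted p = 0.000418, edgeR), or -0.91 (adjusted p = 0.00599, edgeR) against Fmo5-gate nuclei of 500 to 3000 UMIs. Arl9 had the smallest p among the 10, with a difference of 1.35 ± 0.238 (adjusted p = 0.00167, edgeR), or 1.20 (adjusted p = 0.0518, edgeR) within the same limits of UMIs. Ptgds, Defb19, Cst12 and Cst3 had differences of 0.30, 0.31, 0.45 and 0.28 with adjusted p from 0.613 to 0.808 (edgeR).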

How the data were processed

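Single-nucleus transcripts of whole testis were counted in 2 WT and 2 Dhx37-/- libraries. The authors deposited raw UMI counts per gene and barcode, unfiltered and not normalized, as made by Cell Ranger (10x 3′ kit). The file headers name another Cell Ranger release than the paper, the paper names mm39, and the submitters' processing notes name GRCm38 and mm10, with Seurat 3.1.1 and bcl2fastq. Whether introns were counted is not given in the sources used here. Of 55357 genes, 52081 IDs matched GENCODE M21.

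Members of the class and gene lists were chosen with earlier results of these data known. Doublets were not removed. UMIs were summed per library and class. Free RNA was taken from barcodes ranked 45000 to 90000, and its share was estimated from Leydig markers. Neighbours came from 20 principal components of 2000 variable genes (scanpy 1.11.5, scikit-learn 1.9.0). Genotypes were tested with edgeR 4.0.16 in R 4.3.3 (quasi-likelihood F test, TMM, filterByExpr, two-sided, Benjamini-Hochberg adjusted p under 0.05 over all genes tested, genotype as the term), with the 17 rule genes counted apart. The study's own Wilcoxon test takes nuclei as replicates and was not used. The interaction was fitted on 8 sums with the library as block. The steps were tested on simulated data. Single values were compared by two-sided exact permutation. A fold change has 2 libraries on each side.

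Genes named are those of the rule, Dhx37, genes of the lists, the 15 leading over other barcodes of the same depth and the 10 highest and 10 lowest against Fmo5-gate nuclei (pseudocount 10 CPM, at least 50 UMIs in each library), and the called genes with the smallest p (up to 12 in each direction between genotypes, up to 5 for the interaction). Within the lists, genes given with values were chosen after their values were seen. Alternatives were the limits of the rule, thinning to 500 UMIs, scaling, filters, DESeq2 1.42.0, a replicate block, subtraction of free RNA and leaving out each library. Nuclei without Sertoli UMIs and depth-limited Fmo5-gate nuclei were alternatives chosen after seeing the data. Promoters came from RefSeq (GRCm38.p6). GC content of sets with under 80% of genes matched was not compared. Intervals are 95% Wilson intervals.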

Additional observations from a re-analysis of the deposited data

Results flagged for a closer look

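For 100 genes the change between genotypes in low-RNA Ung nuclei differed from that in Fmo5-gate nuclei by the test of the difference itself (edgeR interaction, adjusted p under 0.05). For 10 of them the difference was positive and for 90 negative. The 5 with the smallest p among those relatively higher were Arl9 (1.35 on the log2 scale, adjusted p = 0.00167, edgeR), Tmem120a (0.92, adjusted p = 0.0112), Ccdc9 (0.89, adjusted p = 0.0137), Pwwp2b (0.86, adjusted p = 0.0148) and Phf20 (1.08, adjusted p = 0.021). None of these 5 was called against Fmo5-gate nuclei of 500 to 3000 UMIs (adjusted p = 0.0518, 0.14, 0.383, 0.278 and 0.0736, edgeR), and Tmem120a, Ccdc9 and Pwwp2b were not without Dhx37-/- replicate 1 (adjusted p = 0.223, 0.392 and 0.342). Without WT replicate 1 Ccdc9 (0.0593) and Phf20 (0.144) were not called, without WT replicate 2 Tmem120a (0.267), Ccdc9 (0.0588) and Pwwp2b (0.396) were not, and without Dhx37-/- replicate 2 Phf20 was not (0.75, adjusted p = 0.293, edgeR), so that of the 5 only Arl9 was called whichever library was left out. By DESeq2 Tmem120a (adjusted p = 0.0568) and Pwwp2b (adjusted p = 0.0951) were not called, and Arl9, Ccdc9 and Phf20 were given no adjusted p. DESeq2 called 0 genes in this direction, with 108 at an unadjusted p under 0.05. In low-RNA Ung nuclei Phf20, a reader of histone methylation, was at 54.3 and 49.9 CPM in WT and at 77.6 and 131 CPM in Dhx37-/-, and Tmem120a, a nuclear envelope protein, at 77.4 and 116 CPM against 179 and 171 CPM.

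The 5 with the smallest p among those relatively lower were Kcnip4 (-1.38, adjusted p = 3.64e-06, edgeR), Gm40660 (-1.55, adjusted p = 3.96e-05), Camk4 (-1.18, adjusted p = 0.000418), Gm43016 (-1.34, adjusted p = 0.000574) and 4930554G24Rik (-1.09, adjusted p = 0.00113). Against Fmo5-gate nuclei of 500 to 3000 UMIs Gm40660 (-1.53, adjusted p = 0.000102) and Camk4 (-0.91, adjusted p = 0.00599) were called, and Kcnip4 (-0.66, adjusted p = 0.281), Gm43016 (adjusted p = 0.148) and 4930554G24Rik (adjusted p = 0.0958) were not. Without Dhx37-/- replicate 1 only Kcnip4 of the 5 was called (adjusted p = 6.98e-05, edgeR). In low-RNA Ung nuclei Gm43016 was at 195 and 177 CPM in WT and at 33.9 and 98.4 CPM in Dhx37-/-. For these 5 the log2 fold changes in free RNA were -1.61 to -1.19, and those in Fmo5-gate nuclei -0.28 to 0.47. The part of free RNA, which differs between these classes, was not tested.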

How the results depend on the processing

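The difference in share between genotypes (1.22 points) kept its sign under 12 of 14 alternatives. Among these 12 was leaving out barcodes shared between libraries, which removed no nucleus. The difference did not keep its sign in every case. It was -0.402 points with nuclei that had no Sertoli UMI, and -1.76 to 4.20 points when 1 library was left out. The difference in median UMIs (49.5) was 136 with at least 3 gate genes, 398 without the limit of 3000 UMIs, -6 with nuclei without Sertoli UMIs and -24.5 to 123.5 when 1 library was left out. The 54.8% of neighbours was 54.2 and 56.5% under its 2 alternatives.

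The 13 genes called between genotypes became 6 with at least 3 gate genes, 232 with fewer than 2 excluded genes, 2 after thinning, 515 without a filter on low counts, 284 by DESeq2, 0 without the limit of 3000 UMIs and 0 with free RNA subtracted (2711 and 832 at an unadjusted p under 0.05), and 6 to 1718 when 1 library was left out. The deviations of replicate 1 from the mean of its genotype had a correlation of 0.00698 between the genotypes over 11828 genes. Whether libraries of the same replicate number were processed together is not given in the sources used here. With the replicate block 460 genes were called. Among the alternatives counted next, leaving out barcodes shared between libraries removed no nucleus, so its values kept the call by construction. The limit of 5% mitochondrial UMIs removed 1, 2, 4 and 2 nuclei in WT 1, WT 2, Dhx37-/- 1 and Dhx37-/- 2. Of 244 values of the 13 named genes under alternatives, 181 kept the call, 63 lost it and 0 changed sign.

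The 100 genes of the interaction became 65 with RLE size factors, 248 without scaling, 180 without a filter, 33 by DESeq2, 11 with Fmo5-gate nuclei of the same depth, and 3 to 170 when 1 library was left out. Without scaling the median of the interaction over all genes was -0.12, against -0.01. With 2 libraries on each side, and 800776 to 1623817 UMIs in the sums, low genes such as Dhx37 were left out by the filter on low counts. What size of difference could be detected was not measured. The cause of the moves between settings was not tested.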

Other observations

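Of 14 X-linked genes of spermatids 5 were above other barcodes of the same depth in all 4 libraries, against 25.8% of all genes. Tsga8, a testis-specific gene of that set, was at 343 and 403 CPM in WT and at 703 and 637 CPM in Dhx37-/-, against 303 CPM in Fmo5-gate nuclei and 700.0 CPM in free RNA. Of 13 Y-linked genes 0 were above and 8 were below other barcodes of the same depth, against 25.8% and 51.4% of all genes, and nothing is read from these counts. Zfy2, a zinc finger gene of the Y chromosome that spermatids express, was at 46.4, 40.1, 34.5 and 35.0 CPM in WT 1, WT 2, Dhx37-/- 1 and Dhx37-/- 2, against 142 CPM in Fmo5-gate nuclei and 39.1 CPM in free RNA. Summed, the Y-linked genes were at 120 to 198 CPM in low-RNA Ung nuclei and at 270 to 381 CPM in Fmo5-gate nuclei, without overlap.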
